A study of Mus musculus with 9 samples.

Results

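The genes described here are 10 genes of the Hippo pathway and its YAP target programme, chosen by name out of the 55401 genes of the deposited count table. They are the coactivators Yap1 and Wwtr1 (whose product is TAZ), the DNA-binding factor Tead1, the kinases Lats1 and Lats2, the regulators Amotl2 and Ajuba, and the target genes Ankrd1, Ccn1 (formerly Cyr61) and Ccn2 (formerly Ctgf). All 10 were found under these symbols, and all 10 were among the 16762 genes with enough counts to be tested.

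Hippo signalling is a kinase relay. Upstream kinases of the MST family, held by the scaffold SAV1, activate LATS1 and LATS2, which act with MOB1 cofactors and phosphorylate YAP and TAZ. Phosphorylated YAP and TAZ are kept in the cytoplasm or broken down, while the unphosphorylated proteins enter the nucleus and bind TEAD factors at genes such as Ccn1, Ccn2 and Ankrd1. LATS2 and AMOTL2 restrain YAP and are also encoded by YAP target genes, so they form feedback loops. In the heart the pathway is known for limiting cardiomyocyte proliferation and heart size, and YAP and TAZ respond to cell shape and tension. Most of this control acts on phosphorylation and on where the proteins are in the cell, neither of which RNA counts measure.

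The cells were ventricular myocytes isolated from wild-type C57BL/6J mouse pups of 1 day, and poly(A)-enriched RNA was sequenced from 3 groups of 3 libraries. Control cells were kept in normal oxygen in complete DMEM with 10% serum. Hypoxia cells spent 6 h in DMEM lacking both glucose and serum, inside a sealed chamber with an oxygen absorber (AnaeroPack). The last group had the same medium, chamber and time, with recombinant serglycin (rSRGN) added during the hypoxia; serglycin is the core protein of a proteoglycan of secretory granules. Low oxygen, glucose removal and serum removal were applied together and cannot be told apart. The hypoxia libraries against control ask what this combined injury model does to the genes, and the rSRGN libraries against hypoxia ask what the added protein does under it. The rSRGN libraries against control place the treated cells beside those kept in normal oxygen and complete medium.

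Counts assigned to genes came to 22472430, 22781557 and 21669017 in the control libraries, so depth was even within that group. In the other groups they ranged from 16583985 to 18148474 (hypoxia) and from 16640239 to 20826701 (rSRGN). Levels are given as CPM (a gene's counts scaled to the same round total in every library, with a correction for library composition), as the mean ± SD of 3 libraries where a group is given by 1 value. A gene was called when its adjusted p (edgeR, Benjamini-Hochberg over all 16762 genes) was below 0.05 and its level differed at least 1.5-fold. The hypoxia libraries serve in both the first and the second comparison, and the control libraries in both comparisons with control, so the 3 comparisons are not independent of each other. Nothing in the labels says that replicates are separate cultures or animals, so each p-value measures the spread between these samples, which may be technical.

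In hypoxia against control, 4 of the 10 genes were called higher (Lats2, Amotl2, Ccn1 and Ccn2) and 1 lower (Ankrd1). Over all tested genes, 51.6% were called in this comparison, 26.4% higher and 25.1% lower, so 5 of 10 is near the background and is not a result about the genes as a group. The median log2 fold change of the 10 was 0.01, beside 0.05 over all tested genes. It ranged from -0.0466 to 0.0761 over 16 alternative settings, so its sign was not stable. In rSRGN against hypoxia, 0 of the 10 genes were called by edgeR, where 3.13% of all tested genes were called, 2.27% higher and 0.859% lower. DESeq2 also called 0 of them, and so did an unadjusted p below 0.05 with the same fold limit; without the fold limit 8 of the 10 had an unadjusted p below 0.05, 6 higher and 2 lower, beside 29.4% of all tested genes, 15.9% higher and 13.5% lower. The median of the 10 in this comparison was 0.22, beside a median of -0.03 over all tested genes. In rSRGN against control, the same 4 genes were called higher and Ankrd1 lower, beside 48.8% of all tested genes called, 24.1% higher and 24.7% lower. There the median of the 10 was 0.38 and that of all tested genes 0.01.

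By adjusted p alone, with no fold limit, 7 of the 10 genes passed in hypoxia against control (4 higher and 3 lower), where 70.9% of all tested genes did. In rSRGN against hypoxia, 6 of the 10 passed, beside 16.6% of all tested genes. Of these 6, Wwtr1, Tead1, Lats1, Lats2 and Ccn2 were higher, beside 10.5% of all tested genes, and Ccn1 was lower, beside 6.11%. In rSRGN against control, 8 of the 10 passed (6 higher and 2 lower), beside 68.6% of all tested genes. Over the same alternatives 7 to 8 passed in hypoxia against control and 7 to 9 in rSRGN against control.

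**Figure D1:**
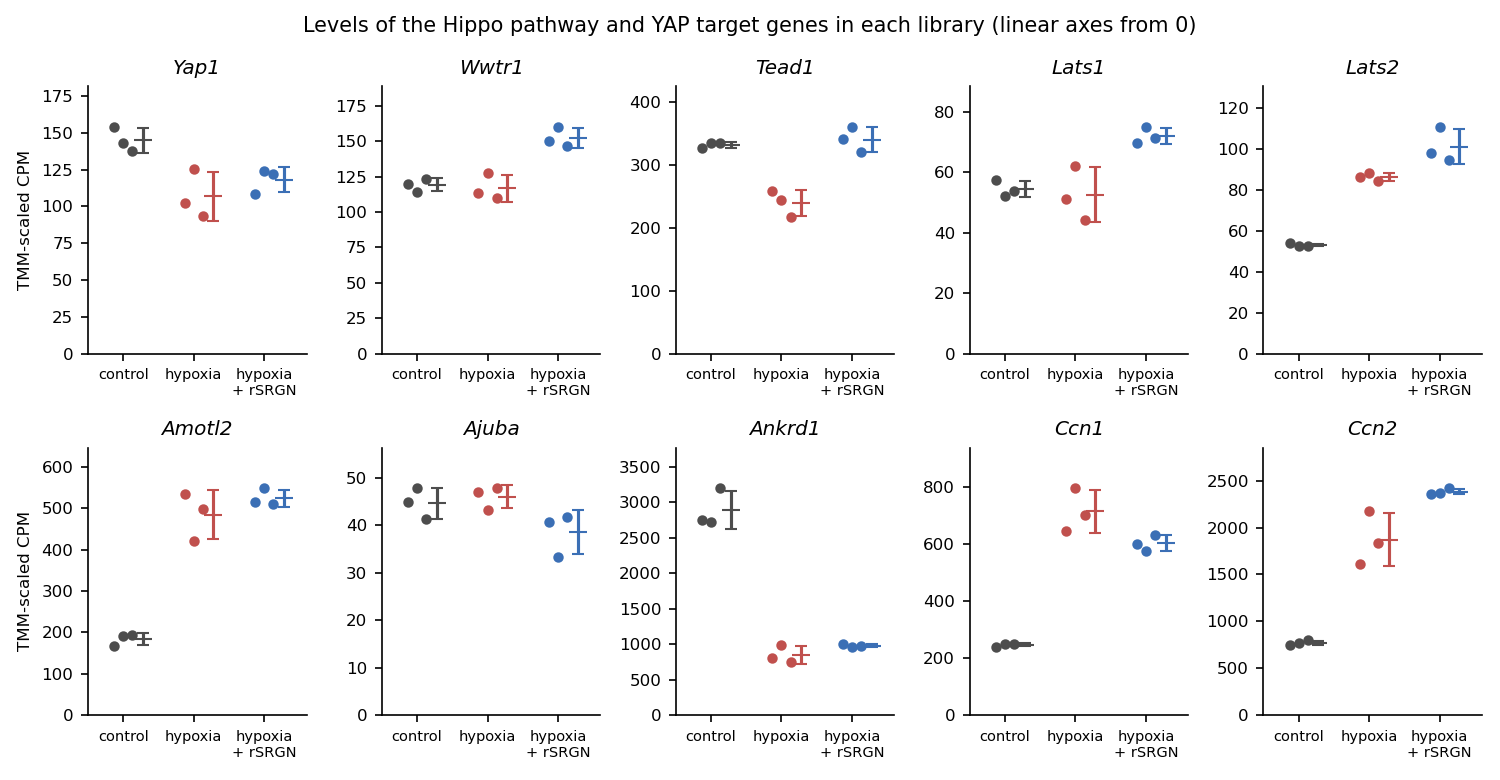
Level of each of the 10 genes in CPM (vertical axis of each panel) in the 3 control, 3 hypoxia and 3 rSRGN libraries; each point is 1 library, and the line and bar give the mean and SD of the group. Ankrd1 was high in control alone, Amotl2, Ccn1, Ccn2 and Lats2 were low in control alone, and Tead1 was low in hypoxia alone.

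The labelled cell type was checked first, because the levels of several of these genes differ between cardiac cell types. All 14 cardiomyocyte markers were present in every group, and their summed level was 48490, 56170 and 59290 CPM in the control libraries. It was 6485, 6138 and 4158 CPM in hypoxia, and 8884, 8281 and 8286 CPM with rSRGN. All 14 markers were called lower in hypoxia and all 14 lower in rSRGN against control (median log2 fold changes -3.59 and -2.92). Pooled over the 9 libraries, the most abundant, Myh6, held 31.4% of the summed level. In hypoxia alone, Tnnt2 (mean 1769 CPM) was above Myh6 (1346 CPM). In bulk RNA, fewer cells of a type and less RNA per cell cannot be told apart. With rSRGN, 11 of the 14 were called higher than in hypoxia and 0 lower (median 0.75); without hypoxia replicate 3, which had the lowest summed level, 5 of the 14 were called higher (median 0.55).

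Fibroblast markers went the other way. Their summed level was 11710, 13330 and 13780 CPM in control, then 25560, 22790 and 24280 CPM in hypoxia. With rSRGN it was 25810, 26850 and 25850 CPM. Pooled over the 9 libraries, Col1a1 was the most abundant at 31.9% of the summed level. Of the 12 markers, 9 were called higher and 0 lower in hypoxia against control (median 0.78), and again 9 and 0 in rSRGN against control (median 0.95). Between rSRGN and hypoxia 1 of the 12 was called, Tcf21, which was lower (log2 fold change -0.76). By adjusted p alone 3 more of the 12 differed, all higher with rSRGN: Fn1 (0.39, adjusted p = 0.00282), Ddr2 (0.35, adjusted p = 0.00339) and Pdgfrb (0.29, adjusted p = 0.00765). By the same rule 13 of the 14 cardiomyocyte markers were higher with rSRGN than in hypoxia. Against control, fibroblast markers were thus higher in the groups where Ccn1, Ccn2, Amotl2 and Lats2 were higher, and cardiomyocyte markers lower where Ankrd1 was lower. The part of cell composition in the results on these genes was not tested.

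Markers of the other cell types also differed between groups. Shares of a sum in this paragraph are pooled over the 9 libraries. The 6 epicardial and mesothelial markers summed to 255, 235 and 227 CPM in control, 856, 909 and 931 CPM in hypoxia and 869, 792 and 874 CPM with rSRGN. Msln was the most abundant in the pooled sum, at 30.4%, but in control Upk3b (mean 72.58 CPM) was above Msln (57.52 CPM). In hypoxia 6 of 6 were called higher than in control (median 2.06; 5 of 6 by DESeq2 and without control replicate 2, hypoxia replicate 1 or hypoxia replicate 3), and with rSRGN 5 of 6 (median 1.90 against control). The 10 macrophage markers, with Lyz2 at 76.3% of their sum, summed to 230.3, 242 and 247 CPM in control, 24.7, 26.8 and 27.9 CPM in hypoxia and 35.2, 33.4 and 29.1 CPM with rSRGN. Of these, 9 of 10 were called lower in hypoxia (median -3.89) and 9 of 10 with rSRGN (median -3.36), each against control; where genes needed 10 counts in every library, 3 were tested and all 3 were lower (medians -1.87 and -1.51). The marker Adgre1 had 0 counts in hypoxia replicates 1 and 3. Adgre1, C1qa, C1qb, C1qc, Mrc1 and Itgam passed the count filter through control, where they are high. Their lower calls, and the medians of the 10 macrophage markers, in part restate that filter. The 8 endothelial markers summed to 74.0, 93.5 and 103 CPM in control, 64.5, 50.04 and 53.2 CPM in hypoxia and 63.8, 66.5 and 51.7 CPM with rSRGN. Tek was the most abundant in the pooled sum, at 25.04%, but in control Cdh5 (mean 20.62 CPM) was above Tek (16.8 CPM). Of the 8, 6 were called lower in each comparison with control (medians -1.08 and -0.74). For rSRGN, 4 were without control replicate 3 and 3 without rSRGN replicate 3. Vwf, among the lower genes, passed the count filter through control, where it is high, so its calls in part restate that filter. The 7 smooth muscle and pericyte markers summed to 1666, 1787 and 1945 CPM in control, 1904, 2227 and 2106 CPM in hypoxia and 1664, 1748 and 1766 CPM with rSRGN, of which Acta2 made 90.3%. In each comparison with control, 1 of these 7 was called higher and 2 lower. The medians were -0.39 in hypoxia (-0.573 to -0.236 over 16 alternatives) and 0.25 with rSRGN (0.0103 to 0.309). In hypoxia against control the counts were 1 and 3 without control replicate 1, control replicate 2 or hypoxia replicate 2, 2 and 1 without control replicate 3, and 2 and 2 without hypoxia replicate 1; with rSRGN they were 2 and 2 without rSRGN replicate 2. Of 5 blood markers, Ptprc was the 1 with enough counts to be tested, and the 5 summed to at most 3.595 CPM in any library. Ptprc had 78, 62 and 62 counts in control, 3, 1 and 2 in hypoxia and 0, 3 and 8 with rSRGN. It was called lower in both comparisons with control (0 to 1 lower over 16 alternatives). It passed the count filter through control alone, so these calls in part restate that filter. Between rSRGN and hypoxia, Kdr among the endothelial markers and Rgs5 and Abcc9 among the pericyte markers were called higher (log2 fold changes 0.93, 0.78 and 0.92), with 1 of the pericyte markers called without hypoxia replicate 3 or rSRGN replicate 2. There 0 macrophage, 0 epicardial and 0 blood markers were called by edgeR or DESeq2, and at an unadjusted p below 0.05 with the fold limit 1, 0 and 0 were. By adjusted p alone 1 of 8 endothelial, 2 of 7 pericyte and 1 of 10 macrophage markers were higher with rSRGN than in hypoxia and 1 of the 7 lower. Abcc9 was at a mean of 380.8 CPM in control, where Rgs5 was at 6.08 CPM. Its log2 fold change in hypoxia against control, -3.93, lay within the range of the cardiomyocyte markers (-4.95 to -2.23). So did its 0.92 in rSRGN against hypoxia (0.23 to 1.03). Which cells the Abcc9 counts came from was not tested, so its calls cannot be assigned to pericytes.

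Yap1, the transcriptional coactivator that gives the programme its name, was at 154, 143 and 138 CPM in the control libraries. In hypoxia it was at 102, 125 and 93.3 CPM, and with rSRGN at 108, 124 and 122 CPM. All 6 stressed libraries were below all 3 controls, and the hypoxia and rSRGN libraries overlapped. The difference between hypoxia and control was a log2 fold change of -0.44 (95% confidence interval -0.63 to -0.25, adjusted p = 0.000202), under the fold limit and therefore not called. With rSRGN against control it was -0.29 (adjusted p = 0.00681; 0.0522 without rSRGN replicate 1, the highest of 16 alternatives, which went down to 9.44e-05). The Yap1 value of rSRGN against hypoxia was 0.14 (-0.05 to 0.34, adjusted p = 0.312); without hypoxia replicate 2 it was 0.28 with an adjusted p of 0.0132, in a range of 0.0132 to 0.773.

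Wwtr1, which encodes the second coactivator TAZ, stood at 120, 114 and 123 CPM in control and 113, 128 and 110 CPM in hypoxia. With rSRGN it stood at 150.3, 160.1 and 146 CPM. The control and hypoxia libraries overlapped, and the 3 rSRGN libraries lay above all 6 others. The log2 fold change of rSRGN against hypoxia was 0.38 (0.23 to 0.54, adjusted p = 0.00144), a 1.30-fold difference that passed the adjusted p and not the fold limit. That of rSRGN against control was 0.35 (adjusted p = 0.000229), and that of hypoxia against control -0.03 (-0.18 to 0.13, adjusted p = 0.748), with a sign that other settings changed. Compared per kilobase of exon, the level of Wwtr1 over that of Yap1 was 1.51, 1.55 and 1.74 in the control libraries. The ratio was 2.15, 1.97 and 2.28 in hypoxia and 2.69, 2.51 and 2.32 with rSRGN, so the 3 groups did not overlap and Wwtr1 exceeded Yap1 per length in every library. No test was run on this ratio.

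Tead1 encodes a TEAD factor, through which YAP and TAZ reach DNA. Its control libraries were at 326, 335 and 335 CPM, its hypoxia libraries at 258, 245 and 217 CPM, and its rSRGN libraries at 340.4, 360.5 and 319.7 CPM. Hypoxia was below both other groups in all 3 libraries, and the control and rSRGN libraries overlapped. Hypoxia against control gave a log2 fold change of -0.47 (-0.62 to -0.31, adjusted p = 8.57e-06) and rSRGN against hypoxia 0.50 (0.35 to 0.66, adjusted p = 0.000174), both short of the fold limit. For rSRGN against control the Tead1 value was 0.03 (adjusted p = 0.693), and its sign changed under other settings. Among the 10 genes, Tead1 had the highest log2 fold change in rSRGN against hypoxia, except without hypoxia replicate 2, where Lats1 (0.60) was above Tead1 (0.52).

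Lats1 and Lats2 encode the kinases that phosphorylate YAP and TAZ. Lats1 was at 57.5, 52.3 and 53.9 CPM in control, 51.3, 62.3 and 44.2 CPM in hypoxia and 69.9, 75.1 and 71.4 CPM with rSRGN. Hypoxia spanned the control range, and all 3 rSRGN libraries were above the other 6. The log2 fold change of rSRGN against hypoxia was 0.46 (0.26 to 0.66, adjusted p = 0.00251). Without hypoxia replicate 2, the hypoxia library with the highest Lats1, it was 0.60 (adjusted p = 3.32e-05, in a range of 9.69e-06 to 0.0225 over 16 alternatives), and Lats1 was then called higher. In rSRGN against control Lats1 was higher by 0.40 (adjusted p = 0.000753), under the fold limit. Hypoxia against control gave -0.05 for Lats1 (-0.25 to 0.15, adjusted p = 0.633), with a sign that other settings changed; without hypoxia replicate 2 it was -0.19 with an adjusted p of 0.0447, in a range of 0.0447 to 0.916. Lats2 behaved differently under hypoxia, with 53.8, 52.8 and 52.7 CPM in control and 86.3, 88.1 and 84.5 CPM in hypoxia. The rSRGN libraries had 98.01, 111 and 94.7 CPM of Lats2. The 3 groups of Lats2 values did not overlap, and control was tightest. Lats2 rose 1.62-fold in hypoxia against control (log2 fold change 0.70, 0.54 to 0.86, adjusted p = 2.81e-08) and 1.91-fold in rSRGN against control (0.93, adjusted p = 2.8e-10).

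The difference of Lats2 between rSRGN and hypoxia was 0.23 (0.08 to 0.38, adjusted p = 0.0365). Its adjusted p ranged from 0.0091 to 0.247 over 16 alternatives. It was above 0.05 without control replicate 3 (0.0534), hypoxia replicate 1 (0.0714), hypoxia replicate 3 (0.108), rSRGN replicate 1 (0.0735) or rSRGN replicate 2 (0.247). Per kilobase of exon, the level of Lats2 over that of Lats1 was 0.981, 1.06 and 1.02 in control, so the messages of the kinases were about equal there. The ratio was 1.76, 1.48 and 2.00 in hypoxia and 1.47, 1.54 and 1.39 with rSRGN, above control in all 6 libraries, with those groups overlapping.

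Amotl2 encodes an angiomotin-like scaffold that binds YAP and holds it outside the nucleus. It was at 166, 191 and 194 CPM in control and 535, 420.3 and 498 CPM in hypoxia. The rSRGN libraries had 515, 548 and 510.4 CPM of Amotl2. Every stressed library exceeded every control library, and the hypoxia and rSRGN libraries overlapped. Amotl2 rose 2.64-fold in hypoxia (log2 fold change 1.40, 1.22 to 1.58, adjusted p = 2.44e-12) and 2.86-fold in rSRGN against control (1.52, adjusted p = 7.95e-13). Between rSRGN and hypoxia the value was 0.11 (-0.06 to 0.29, adjusted p = 0.395).

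Ajuba encodes a LIM-domain protein that can hold LATS kinases at cell junctions. Its levels were 44.8, 47.8 and 41.3 CPM in control, 46.95, 43.3 and 47.8 CPM in hypoxia and 40.6, 33.2 and 41.7 CPM with rSRGN. The rSRGN libraries lay below all 3 hypoxia libraries and overlapped with control. Their log2 fold change against hypoxia was -0.26 (-0.46 to -0.06) and missed the adjusted p (0.0725; 0.0387 without hypoxia replicate 2, in a range of 0.0387 to 0.372 over 16 alternatives). Hypoxia against control gave 0.04 (-0.15 to 0.24, adjusted p = 0.696), with a sign that other settings changed, and rSRGN against control -0.21 (adjusted p = 0.0526). The last of these was near the threshold, with an adjusted p of 0.0326 without control replicate 3, 0.0353 without hypoxia replicate 2, 0.0295 without rSRGN replicate 3, 0.0223 with all genes of at least 1 count kept and 0.0476 in a fit of only rSRGN and control, in a range of 0.0223 to 0.314.

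Ankrd1 encodes a cardiac ankyrin repeat protein of the sarcomere and nucleus, and is a YAP target in many cell types. It was at 2749, 2716 and 3194 CPM in control and 802, 984 and 746 CPM in hypoxia. The rSRGN libraries had 998, 959 and 973 CPM of Ankrd1. The stressed libraries were far below control, and the rSRGN libraries overlapped with hypoxia, where replicate 2 was the highest. Ankrd1 fell 3.42-fold in hypoxia against control (log2 fold change -1.77, -1.97 to -1.58, adjusted p = 1.68e-13) and 2.96-fold in rSRGN against control (-1.56, adjusted p = 1.62e-12). Between rSRGN and hypoxia the value was 0.21 (0.02 to 0.40, adjusted p = 0.126); without hypoxia replicate 2 it was 0.34 with an adjusted p of 0.002, in a range of 0.002 to 0.415 over 16 alternatives, which included 0.0443 by DESeq2 and 0.0181 with all genes of at least 1 count kept.

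Ankrd1 was also set beside sarcomere genes. Per kilobase of exon, the level of Ankrd1 over that of the cardiac actin gene Actc1 was 0.208, 0.186 and 0.207 in control, 0.579, 0.606 and 0.834 in hypoxia and 0.482, 0.520 and 0.481 with rSRGN. Against the cardiac troponin gene Tnnt2, the same ratio for Ankrd1 was 0.850, 0.747 and 0.905 in control, 1.19, 1.32 and 1.34 in hypoxia and 1.28, 1.25 and 1.27 with rSRGN. Both ratios were above control in all 6 stressed libraries. Neither ratio was tested. The fold change of Ankrd1 in hypoxia (-1.77 in log2) was smaller in size than that of any of the 14 cardiomyocyte markers, which ranged from -4.95 to -2.23. With rSRGN against control, the nearest markers, Nppa (-1.57) and Myl7 (-1.68), were close to Ankrd1 (-1.56).

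Ccn1 encodes a secreted matricellular protein and is widely used as a readout of YAP activity. It was at 239.9, 250.3 and 249 CPM in control and 647, 797 and 704 CPM in hypoxia. The rSRGN libraries had 603, 575 and 631 CPM of Ccn1. Control was the lowest group, and all 3 rSRGN libraries were below all 3 hypoxia libraries, though the highest rSRGN library was close to the lowest hypoxia library. Ccn1 rose 2.905-fold in hypoxia (log2 fold change 1.54, 1.37 to 1.70, adjusted p = 9.67e-14) and 2.45-fold in rSRGN against control (1.29, adjusted p = 2.22e-12). The difference between rSRGN and hypoxia was a log2 fold change of -0.25 (-0.41 to -0.09, adjusted p = 0.0312), within the fold limit. Its adjusted p ranged from 0.00822 to 0.163 over 16 alternatives, and all 16 kept it negative. By RLE scaling it was 0.0544 and in a fit of only hypoxia and rSRGN 0.0596. The adjusted p was also above the threshold when 1 library was left out, at 0.0549 without control replicate 2, 0.0897 without hypoxia replicate 2, and 0.107, 0.163 and 0.0526 without rSRGN replicates 1, 2 and 3 in turn.

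Ccn2 encodes connective tissue growth factor, another secreted matricellular protein. It was at 750.2, 765 and 797 CPM in control and 1609, 2179 and 1831 CPM in hypoxia. The rSRGN libraries had 2362, 2373 and 2420 CPM of Ccn2. The groups did not overlap, and the hypoxia libraries spread far more (SD 288) than the control libraries (SD 24.2) or the rSRGN libraries (SD 30.5). Ccn2 rose 2.43-fold in hypoxia (log2 fold change 1.28, 1.10 to 1.47, adjusted p = 1.89e-11) and 3.09-fold in rSRGN against control (1.63, adjusted p = 4.2e-13). Ccn2 was 1.27-fold higher in rSRGN than in hypoxia (0.35, 0.17 to 0.53, adjusted p = 0.00915), under the fold limit and past the adjusted p under all 16 alternatives (8.45e-06 to 0.0421).

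The paired CCN targets therefore differed in their order between groups. Per kilobase of exon, the level of Ccn1 over that of Ccn2 was 0.453, 0.464 and 0.443 in control and 0.57, 0.518 and 0.545 in hypoxia. With rSRGN the ratio was 0.361, 0.344 and 0.370. Hypoxia was highest and rSRGN lowest in all libraries, with no overlap among the 3 groups. This ratio was not tested.

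Ranked by mean level per kilobase of exon in control, Ankrd1 stood first at 1000 ± 92.5 CPM per kb. It was followed by Ccn2 (269 ± 8.45), Ccn1 (122 ± 2.83) and Amotl2 (29.2 ± 2.44) on the same scale. Wwtr1 (24.9 ± 0.970) and Tead1 (24.5 ± 0.369) came next in CPM per kb and did not differ beyond their spread. Yap1 (15.6 ± 0.917) and Ajuba (12.2 ± 0.895) followed per kb, and Lats2 (7.62 ± 0.0897) and Lats1 (7.48 ± 0.361) closed the order without differing beyond their spread. In hypoxia Ccn2 came first at 655 ± 100.5 CPM per kb, ahead of Ccn1 (355 ± 37.4) and Ankrd1 (292 ± 43.2), whose libraries overlapped. Amotl2, Wwtr1 and Tead1 followed in hypoxia at 77.02, 24.4 and 17.7 CPM per kb. Ajuba (12.6), Lats2 (12.4) and Yap1 (11.5 CPM per kb) overlapped there, and Lats1 was lowest at 7.21 CPM per kb. With rSRGN the order by level per kb was Ccn2 (834 ± 10.6), Ankrd1 (338 ± 6.92) and Ccn1 (299 ± 13.9), which did not overlap. Below them with rSRGN were Amotl2 (83.4), Wwtr1 (31.9), Tead1 (25.1), Lats2 (14.5), Yap1 (12.8), Ajuba (10.6) and Lats1 (9.89 CPM per kb), of which Ajuba and Lats1 overlapped. Summed over the 10 genes, the level was 4662, 4667 and 5178 CPM in control, 4250, 5071 and 4375 CPM in hypoxia and 5286, 5319 and 5330 CPM with rSRGN. Control and hypoxia overlapped in this sum, with Ankrd1 and Ccn2 exchanging places as its largest term, and rSRGN was above both.

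**Figure D2:**
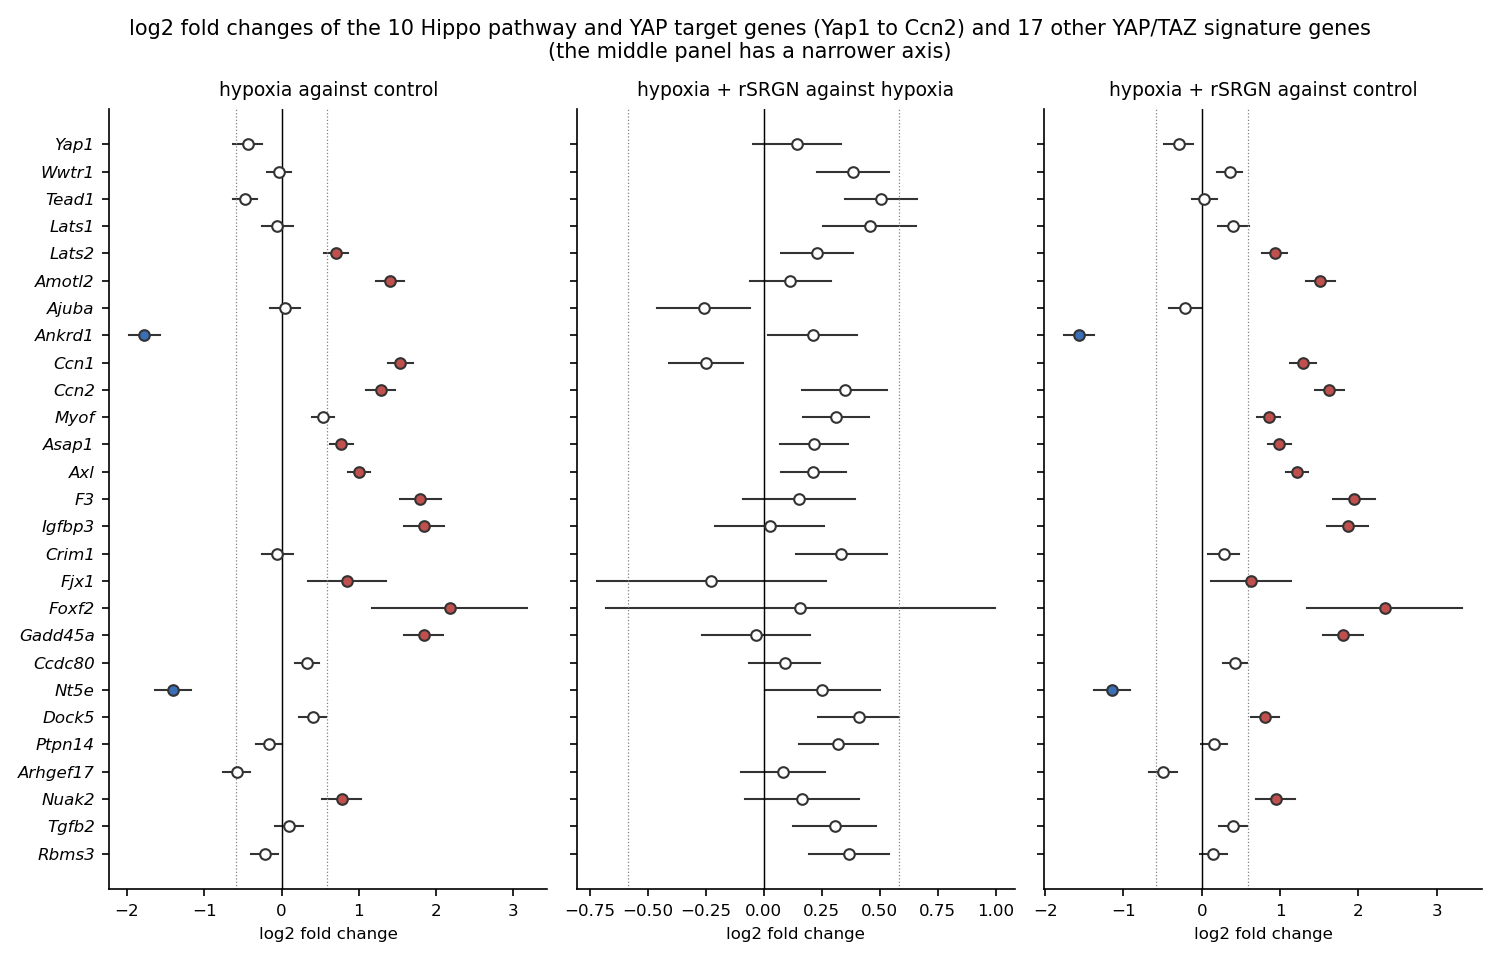
Log2 fold change (horizontal axis) of the 10 genes and of 17 other YAP/TAZ signature genes in each comparison (1 panel each; the middle panel has a narrower axis); bars are 95% confidence intervals from edgeR. Both panels against control hold large values in both directions, and in rSRGN against hypoxia every value of the 10 genes lies between -0.26 and 0.50.

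For the wider gene lists, the shares of all tested genes called against control were again 51.6% in hypoxia (26.4% higher and 25.1% lower) and 48.8% with rSRGN (24.1% and 24.7%). Of 13 genes for the kinase relay and its activators, 2 were called higher and 5 lower in hypoxia against control (median -0.36), a total near that background. Mob1b, a cofactor of LATS1 and LATS2, fell most, from a mean of 128 CPM to 20.4 CPM (log2 fold change -2.65, adjusted p = 3.77e-17), and was at 27.4 CPM with rSRGN (-2.22 against control). Its paralogue Mob1a was called neither in hypoxia against control (-0.18, adjusted p = 0.0274) nor in rSRGN against control (0.28, adjusted p = 0.00149). Taok1, an upstream kinase, also fell in hypoxia (-1.43), while Taok3 (0.89) and the scaffold gene Sav1 (0.61) rose; 1 was called higher without control replicate 2 or hypoxia replicate 2, and 3 with scaling by library size alone. Of the 13, rSRGN against control gave 3 called higher and 4 lower (median 0.02), with Taok3 (0.95) and Wwc1 (0.80) the highest and Mob1b and Taok2 (-0.997) the lowest. Between rSRGN and hypoxia 0 of the 13 were called by edgeR (median 0.26; 1 without rSRGN replicate 3), 0 by DESeq2 and 0 at an unadjusted p below 0.05 with the fold limit. By adjusted p alone 7 of the 13 were higher and 0 lower, beside 10.5% and 6.11% of all tested genes, shares that also apply to the lists that follow.

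Among 8 upstream regulators (cadherin, angiomotin and LIM genes and the phosphatase gene Ptpn14, which is also a signature gene), 2 were called higher and 1 lower in hypoxia (median 0.01). Wtip (1.05) and Fat4 (0.71) rose, and Limd1, a relative of Ajuba, fell (-1.21). With rSRGN against control, 3 were called higher and 1 lower (median 0.35), and the same genes led, Wtip at 0.99, Fat4 at 0.89 and Limd1 at -1.02. Added rSRGN gave 0 of the 8 called against hypoxia by edgeR, by DESeq2 or at an unadjusted p below 0.05 with the fold limit (median 0.27), and 4 were higher by adjusted p alone; without hypoxia replicate 1, edgeR called 1.

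Of the TEAD and Vgll genes other than Tead1, 5 of 7 had enough counts (Vgll1 and Vgll2 did not), and 1 was called in each comparison with control, higher in both (medians 0.24 and 0.20). That gene was Vgll3, a TEAD cofactor, which rose from a mean of 80.1 CPM in control to 162 CPM in hypoxia (log2 fold change 1.02, adjusted p = 7.49e-11) and 212 CPM with rSRGN (1.40, adjusted p = 3.91e-13). Tead2 (0.24), Tead3 (0.21) and Tead4 (0.35) were not called in hypoxia against control, where Tead1 was lower at -0.47. Against hypoxia, rSRGN gave 0 of the 5 called by edgeR, by DESeq2 or at an unadjusted p below 0.05 with the fold limit (median -0.01), and Vgll3 passed the adjusted p alone (0.38, adjusted p = 0.00153).

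Beyond Ankrd1, Ccn1, Ccn2, Amotl2 and Lats2, 17 other genes of published YAP/TAZ signatures were followed as further targets. In hypoxia against control 8 were called higher and 1 lower (median 0.54), beside 26.4% and 25.1% of all tested genes. Of the 17, 2 were lower by DESeq2 and RLE scaling and without control replicate 1, hypoxia replicate 1, rSRGN replicate 2 or rSRGN replicate 3. Foxf2 had the highest log2 fold change (2.18) at a mean below 1 CPM, with 7, 4 and 7 counts in control and 28, 21 and 19 in hypoxia. It passed the count filter through the stressed groups, where it is high, so its rank and its place among the 8 in part restate that filter. Among genes with a mean of at least 1 CPM the highest were Igfbp3 and Gadd45a, each at 1.84, and the 1 lower was Nt5e (-1.40, adjusted p = 2.36e-10). With rSRGN against control 10 were called higher and 1 lower (median 0.81), or 2 lower without control replicate 1. The shares of all tested genes there were 24.1% higher and 24.7% lower. Foxf2 was again highest (2.33), with the same limit. Then came F3 (1.95, adjusted p = 7.93e-12) and Igfbp3 (1.86), and Nt5e was lower again (-1.15). Against hypoxia, 0 of the 17 were called with rSRGN by edgeR, 0 by DESeq2 and 0 at an unadjusted p below 0.05 with the fold limit (median 0.21); by adjusted p alone 8 were higher and 0 lower, beside 10.5% and 6.11% of all tested genes. The signature genes were defined in other cell types, so their control by YAP in these cultures is not known.

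The paralogues of Ccn1, Ccn2 and Ankrd1 went in both directions. Ccn3 rose from a mean of 10.6 CPM in control to 23.3 CPM in hypoxia (log2 fold change 1.14, adjusted p = 5.82e-08) and 28.6 CPM with rSRGN (1.44). Ccn5 rose from 38.0 to 72.4 CPM in hypoxia (0.93, adjusted p = 3.27e-09) and was at 60.9 CPM with rSRGN (0.68). Ccn4 fell from 257 to 137 CPM in hypoxia (-0.91, adjusted p = 2.36e-10). With rSRGN it was at 201 CPM, and its log2 fold change against hypoxia, 0.55 (adjusted p = 6.36e-05), was just under the fold limit. Ccn6 had too few counts to be tested. Ankrd23, a relative of Ankrd1, fell from 2.41 to 0.601 CPM in hypoxia (-1.99, adjusted p = 8.8e-05) and was at 0.961 CPM with rSRGN. Ankrd2, the remaining relative of Ankrd1, had 0, 1 and 2 counts in the control libraries, 31, 49 and 41 in hypoxia and 20, 35 and 34 with rSRGN. From summed counts the ratio for Ankrd2 was 49.4 in hypoxia against control (95% exact interval 16.5 to 243, counting error only) and 34.2 in rSRGN against control (11.3 to 169), opposite in direction to Ankrd1 and Ankrd23. Of the 5 tested paralogues, 3 were called higher and 2 lower in hypoxia (median 0.93) and 3 higher and 1 lower in rSRGN against control (median 0.68). Over 16 alternatives these counts were 2 to 3 higher and 1 to 2 lower in hypoxia, and 2 to 3 higher and 0 to 1 lower with rSRGN. Ankrd2 passed the count filter through the stressed groups, where it is high, so its higher calls in part restate that filter. Against hypoxia, 0 of the 5 were called with rSRGN by edgeR, by DESeq2 or at an unadjusted p below 0.05 with the fold limit (median 0.29), and edgeR called 1 without hypoxia replicate 2.

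Among 14256 genes with a mean of at least 1 CPM, the profile over the 9 libraries closest to that of Ccn1 was that of Ubb (Pearson r = 0.9987 of log2 CPM), followed by Pcbp2 (0.9985) and Slc35a2 (0.9984), and 196 genes had an r above 0.99. For Ccn2 the closest were Cadm1 (0.9973), Hlx (0.996) and Asap1 (0.9958), the last being one of the YAP/TAZ signature genes, with 40 genes above 0.99. For Ankrd1 they were Nexn (0.9986), Mapre2 (0.9979) and Cbx5 (0.9974), with 232 genes above 0.99. The 9 libraries fall into 3 groups, so these values of r describe likeness between group means more than between libraries, and they carry no test.

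In the mouse genome build GRCm38, the 10 genes lie on 6 chromosomes. Ccn1 (ENSMUSG00000028195.4) lies at chr3:145646976-145649981 and Wwtr1 (ENSMUSG00000027803.14) at chr3:57455649-57575910, both on the minus strand. Yap1 (ENSMUSG00000053110.13) lies at chr9:7931999-8004596 on the minus strand and Amotl2 (ENSMUSG00000032531.15) at chr9:102716672-102733418 on the plus strand. Lats1 (ENSMUSG00000040021.13) at chr10:7681214-7716460 and Ccn2 (ENSMUSG00000019997.11) at chr10:24595442-24598683 are on the plus strand. Lats2 (ENSMUSG00000021959.16) at chr14:57689662-57758388 and Ajuba (ENSMUSG00000022178.11) at chr14:54567472-54577558 are on the minus strand. Ankrd1 (ENSMUSG00000024803.9) lies at chr19:36111961-36120099 on the minus strand and Tead1 (ENSMUSG00000055320.18) at chr7:112679318-112906807 on the plus strand. Exons of Yap1 overlap Gm20416 and those of Ccn2 overlap Gm15270, each on the opposite strand, and exons of Lats2 overlap Gm49361 on the same strand. Counting used no strand information as far as the table's header shows, so reads in those stretches are uncertain for Yap1, Ccn2 and Lats2.

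Because Ccn1, Amotl2 and Lats2 rose and Ankrd1 fell while all are YAP target genes, the sequence around their starts is shown. RefSeq windows of 300 bases (250 before and 50 after the gene start, GRCm38.p6) were available for 8 of the 10 genes, with no entry for Tead1 and Ccn2. The letters GGAATG, the core that TEAD factors recognise, read on either strand (CATTCC on the other), were in the windows of 7 of these 8 genes, all but Lats1. Over all RefSeq genes with a window they were in 16.6% of genes (14.7% of windows). The palindromic letters TGANTCA of AP-1 were in 0 of the 8 genes, beside 9.0% of all genes, and the CArG box of SRF in 0 of the 8, beside 1.8%. Of genes with a window, GGAATG was in 4 of 6 other TEAD and Vgll genes, 3 of 6 upstream regulators, 3 of 11 kinase relay genes, 3 of 11 signature genes, 1 of 3 paralogues and 6 of 14 cardiomyocyte markers. In the other lists it was in 3 of 10 SRF targets, 0 of 9 HIF targets, 1 of 6 fibroblast markers and 1 of 5 endothelial markers. It was in 2 of 5 smooth muscle and pericyte, 0 of 7 macrophage, 1 of 2 epicardial and 0 of 4 blood markers. The RefSeq starts differ from the GENCODE gene ends for some genes: the matches shown for Lats2, Amotl2 and Ankrd1 lie inside the gene coordinates given above, and bases before the RefSeq starts of Amotl2, Ankrd1 and the second of the Wwtr1 windows include exons of the same gene. Bases before the start of Yap1 include exons of Gm45494, and those of Lats1 exons of Pcmt1. A match describes the letters in the window, not a bound site. Below, capitals mark GGAATG or CATTCC, and each sequence is written 5′ to 3′ on the strand of the gene. Yap1 is at chr9:8004720-8004749 (minus strand), Wwtr1 at chr3:57576029-57576058 (minus), Lats2 at chr14:57746102-57746131 (minus) and Amotl2 at chr9:102717727-102717756 (plus). Ajuba has matches at chr14:54577830-54577859 and chr14:54577808-54577837 (minus) and Ankrd1 at chr19:36120037-36120066 and chr19:36119950-36119979 (minus).
Yap1: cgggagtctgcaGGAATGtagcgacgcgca
Wwtr1: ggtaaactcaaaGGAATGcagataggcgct
Lats2: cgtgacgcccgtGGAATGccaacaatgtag
Amotl2: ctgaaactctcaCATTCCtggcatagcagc
Ajuba first match: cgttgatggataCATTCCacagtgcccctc
Ajuba second match: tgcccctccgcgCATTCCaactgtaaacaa
Ankrd1 first match: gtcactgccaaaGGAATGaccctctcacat
Ankrd1 second match: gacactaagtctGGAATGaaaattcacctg

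Ccn1 had the lowest adjusted p of the 10 genes in hypoxia against control, so its 250 bases before the gene start are given whole, at chr3:145649986-145650235 on the minus strand (RefSeq, GRCm38.p6). Its single match to the TEAD letters, in capitals, starts 103 bases before the start of Ccn1 and reads CATTCC on the strand of the gene.
Ccn1: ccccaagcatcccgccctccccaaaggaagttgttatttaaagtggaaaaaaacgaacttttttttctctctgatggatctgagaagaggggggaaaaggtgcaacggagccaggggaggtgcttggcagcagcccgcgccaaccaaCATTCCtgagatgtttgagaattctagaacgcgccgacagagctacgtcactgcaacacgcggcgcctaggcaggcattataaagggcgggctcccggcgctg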

How the data were processed

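Per the submitters' processing notes, reads were aligned with HISAT2 to mm10 and counted per gene with featureCounts; the table's header gives featureCounts 2.0.1 and GENCODE mouse release 25. The authors deposited raw counts of 55401 genes in 9 libraries, 3 per group. From these counts, genes with few counts were removed with filterByExpr of edgeR 4.0.16 (R 4.3.3, limma 3.58.1), libraries were scaled by TMM, and all 9 libraries were fitted with 1 mean per group by the quasi-likelihood method. P-values were adjusted by Benjamini-Hochberg over 16762 genes. CPM used the TMM-scaled library sizes, and CPM per kb the exon length given in the table. Median depth was 22472430 counts in control, 17434604 in hypoxia and 18772474 with rSRGN. Pearson r used log2 CPM with a prior count of 2. Procedures were tested on simulated data. Alternatives were DESeq2 1.42.0, RLE scaling, library size alone, other filters, unadjusted p, no fold limit, a model of just the compared pair, a replicate block, and leaving out each library in turn. Motifs were searched with Python 3.11.15, and figures drawn with matplotlib 3.10.9. The members and lists were chosen with earlier results of these data known. All 10 members were described; from other lists, called genes of at least 1 CPM with the largest rise or fall (at most 2 each way) could be named, plus the paralogues and the 3 nearest genes of Ccn1, Ccn2 and Ankrd1. Mob1a, Tead2, Tead3, Tead4, Foxf2, Myl7, Fn1, Ddr2, Pdgfrb, C1qa, Mrc1, Itgam, Vwf and Ankrd37 were named after their values were seen. The article with the series does not describe these cultures and was not used here.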

Additional observations from a re-analysis of the deposited data

How the results depend on the processing

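The 5 members called in each comparison with control (Lats2, Amotl2, Ccn1, Ccn2 and Ankrd1) kept their call and direction under all alternatives run. In hypoxia against control their log2 fold changes ranged from 0.65 to 0.77 (Lats2), 1.31 to 1.49 (Amotl2), 1.45 to 1.61 (Ccn1), 1.16 to 1.38 (Ccn2) and -1.90 to -1.69 (Ankrd1). With no fold limit, 7 members passed in hypoxia against control and 8 in rSRGN against control. In rSRGN against hypoxia, 525 genes and 0 members were called by edgeR; with an unadjusted p 899 genes were, and with no fold limit 2790 genes and 6 members, since these rules ask for less. Leaving out 1 library gave 321 to 699 genes (321 without hypoxia replicate 3) and 0 to 1 members (Lats1, without hypoxia replicate 2); DESeq2 called 540 genes and 0 members. Some uncalled values near 0 reversed, and the cause was not tested. In hypoxia against control, Wwtr1 was 0.0392 and Lats1 0.0116 with library size alone; leaving out 1 library they ranged from -0.0987 to 0.0141 (positive without hypoxia replicate 3) and from -0.1944 to 0.0549 (the same). Ajuba was -0.0103 with genes kept from 1 count, and leaving out 1 library it ranged from -0.0194 (without control replicate 3) to 0.0834. In rSRGN against control, Tead1 was -0.0072 with genes kept from 1 count, and leaving out 1 library it ranged from -0.0101 (without rSRGN replicate 2) to 0.0729. Replicate numbers showed no visible pairing of the samples (same-number r from -0.037 to 0.021 over 9 pairs, other pairs -0.048 to 0.046). With 3 libraries a group this cannot exclude a paired design. With the replicate block 8550, 495 and 8096 genes and 5, 0 and 5 members were called in the 3 comparisons. The block changed no member's call. Depth of 16583985 to 22781557 counts limits Ankrd2, Ankrd23 and other genes near 1 CPM, not the 10 members. With 3 libraries a group, a difference under the fold limit is read from its interval.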

Other observations

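Genes of other transcription programmes gave mixed counts. Of 12 targets of SRF and its MRTF cofactors, which also act on Ccn1 and Ccn2, 4 were called higher and 4 lower in hypoxia against control (median log2 fold change 0.28; 6 and 4 with library size alone). Tagln (1.47) and Zyx (1.45) were highest, and Fhl2 (-1.96) and Myl9 (-1.62) lowest. In rSRGN against control 4 were higher and 3 lower (median 0.28), and against hypoxia 0 were called by edgeR or DESeq2 or at an unadjusted p below 0.05 with the fold limit (median 0.01); edgeR called 1 without hypoxia replicate 1. Acta2, Tagln and Cnn1 of this list are also in the smooth muscle list, and Ptpn14 is in 2 of the Hippo lists. Of 10 HIF target genes, 4 were called higher and 4 lower in hypoxia against control (median -0.26), and likewise in rSRGN against control (median -0.15). Without control replicate 1, 5 were lower in each of these comparisons (medians -0.515 and -0.367). Without control replicate 3, 3 and 2 were lower and both medians were positive (0.135 and 0.243). Where genes needed 10 counts in every library, 3 and 2 of 9 were lower (medians -0.131 and 0.142). Ndrg1 (1.48) and P4ha1 (1.41) rose in hypoxia, while Pdk1 (-3.06) and Bnip3 (-2.14) fell. The controls differed among themselves in this list, with summed levels of 559, 669 and 831 CPM in control replicates 1, 2 and 3. Bnip3 was at 29.7, 50.03 and 77.06 CPM there. The reason for this spread was not tested. Between rSRGN and hypoxia 0 of these 10 were called by edgeR or DESeq2, and 1, Ankrd37, at an unadjusted p below 0.05 with the fold limit (median 0.13). Ankrd37 was also among the 4 called lower in each comparison with control. It had 15, 32 and 41 counts in control, 2, 5 and 2 in hypoxia and 12, 7 and 9 with rSRGN. It passed the count filter through control, where it is high, so its lower calls in part restate that filter.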
